A study of Homo sapiens with 24 samples.

Results

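The 39 genes described here encode the kinetochore, the spindle assembly checkpoint and the motors and kinases of the mitotic spindle. They were chosen by symbol as a functional group, and their junctions are those on the gene's strand within its span in the GENCODE annotation lifted to GRCh37. This gave 7784 of the 1830076 rows in each deposited file, of which 2460 were exon–intron boundaries and 5324 were spliced junctions. The genes were sorted by role into checkpoint signalling (BUB1, BUB1B, BUB3, TTK, MAD1L1, MAD2L1, ZW10, KNTC1), mitotic kinases (AURKA, PLK1, PLK4), the chromosomal passenger complex (AURKB, INCENP, BIRC5, CDCA8), the inner kinetochore (CENPA, CENPC, CENPH, CENPK), the kinetochore corona (CENPE, CENPF), the outer kinetochore (NDC80, NUF2, SPC24, SPC25, KNL1, DSN1, NSL1, PMF1, ZWINT), spindle motors and factors (KIF2C, KIF11, KIF18A, KIF20A, KIF23, PRC1, TPX2) and anaphase triggers (ESPL1, CDC20).

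RNA-seq of poly(A) RNA was available for HCT116, a human colorectal carcinoma cell line, made to express either WT PHF5A or PHF5A carrying the Y36C substitution. Each line had been treated for 6 h with the vehicle DMSO or with E7107, a pladienolide derivative that binds the SF3b complex of the U2 snRNP. Each of the 4 groups (WT DMSO, Y36C DMSO, WT E7107, Y36C E7107) held 6 samples. The labels give no dose, and none is given here. PHF5A was supplied by an expression construct in cells that keep their own PHF5A, so neither group is an edited endogenous gene. The genotype could not be checked from these files, which hold percentages only. The 6 samples of a group were replicate treatments made before lysis, per the study's methods, and are of 1 line per genotype, so the p-values measure the spread between treated samples of that line.

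Splicing removes introns after the U2 snRNP has recognised the branch point upstream of the acceptor (3′) splice site, and PHF5A and SF3B1 line the pocket that holds the branch point adenosine. An intron that is not removed stays in the transcript as intron retention (IR), whereas joining of more distant exons gives exon skipping (ES). Kinetochores attach chromosomes to spindle microtubules, the checkpoint delays anaphase until all are attached, and the chromosomal passenger complex corrects faulty attachments and then acts at the central spindle. Most of these genes are transcribed mainly in G2 and mitosis.

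The measure throughout is percent spliced in (PSI), the share of reads at a splice site that support a given junction. For a boundary row it is the share of reads that run from the exon into the intron, which is the readout of IR. Where a site lies inside an exon of another transcript, such reads need not come from a retained intron. The values analysed are percentages without counts, so the depth behind a PSI is unknown and no counting interval could be given. Of 2530 splice sites listed for the 39 genes, 1352 to 1373 had reads in the WT E7107 samples, against 1477 to 1517 in WT DMSO, 1466 to 1525 in Y36C DMSO and 1484 to 1541 in Y36C E7107. Over the whole files the same samples stood apart, with 281164 to 283548 of 636130 sites against 328458 to 340081 in the others. The part of this difference in the results below was not tested. Every canonical splice site of the epithelial genes EPCAM, CDH1, KRT8, KRT18 and KRT19 had reads in every sample, no site of PTPRC or COL1A2 was listed, and ALB had at most 1 site with reads. In bulk RNA, fewer cells that carry a transcript and less RNA per cell cannot be told apart, and a PSI measures neither.

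E7107 raised the boundary PSI of nearly all of these genes in WT cells and did so far less in Y36C cells. As a gene-level value, PSI was averaged in each sample over the boundary rows at a gene's annotated splice sites, from any annotated transcript. Rows needed reads in all 24 samples (8 to 122 rows per gene). Limma was fitted to the log odds of this mean over all protein-coding genes. In WT cells 33 of the 39 genes rose, CENPK fell, and 5 did not pass the test at an adjusted p of 0.05. Of 10661 genes tested, 71.7% rose and 7.35% fell. The median change was 14.0 percentage points over the 39 genes and 6.97 over all genes tested. In Y36C cells 25 of the 39 rose and none fell, while 45.9% of 10634 genes rose and 0.95% fell. The median change there was 1.13 percentage points for the 39 genes and 0.984 for all genes. With the median over a gene's boundary rows in place of the mean, 14 of the 35 genes tested rose in Y36C cells, against 29.9% of 8709 genes. In 33 genes every WT E7107 sample was above every WT DMSO sample, as in 63.0% of all genes, and in 20 genes the same held in Y36C cells, as in 29.6% of all genes.

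**Figure D1:**
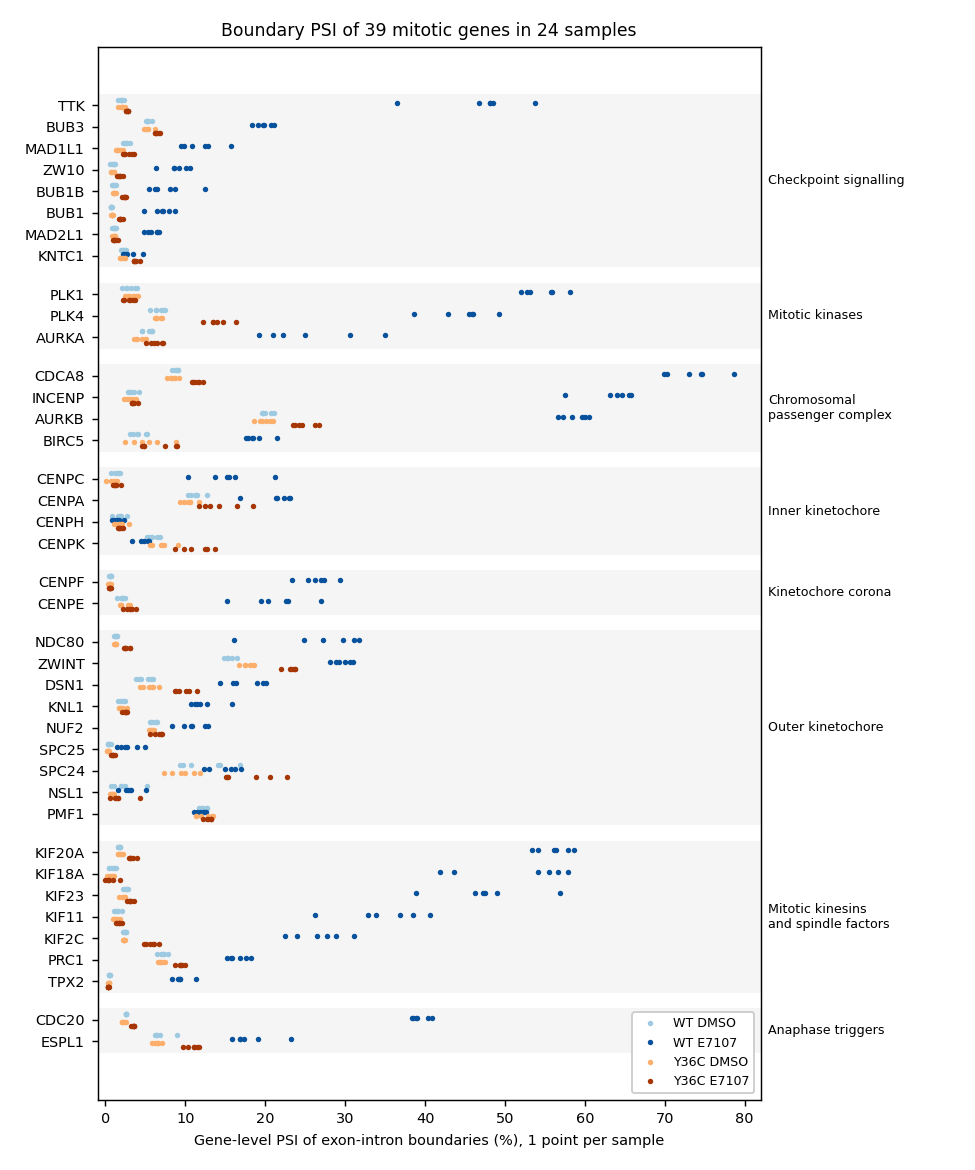
Gene-level boundary PSI (x axis, %) of the 39 genes (y axis, by role), with 1 point per sample and 4 colours for the 4 groups of 6 samples. The WT E7107 points of CDCA8, INCENP, AURKB, KIF20A and PLK1 all lie above 50%, while the Y36C E7107 points of all genes stay at 26.7% or less.

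The chromosomal passenger complex held the largest rises. CDCA8, which encodes borealin, lies at chr1:38158153-38175391 on the plus strand. Its gene-level PSI was 8.29 to 9.06% (median 8.87%) in WT DMSO and 69.9 to 78.6% (median 73.8%) in WT E7107. In Y36C cells it was 7.64 to 9.19% (median 8.38%) in DMSO and 10.8 to 12.2% (median 11.4%) in E7107. The groups did not overlap in either genotype, and the rise was 64.7 percentage points in WT (adjusted p = 6.0e-13 by limma) and 3.01 in Y36C cells (adjusted p = 3.9e-05). INCENP, the scaffold that binds and activates Aurora B, went from 2.80 to 4.18% (median 3.23%) in WT DMSO to 57.5 to 65.8% (median 64.3%) in WT E7107. Its Y36C samples stayed at 2.34 to 3.85% in DMSO and 3.31 to 4.10% in E7107, and this difference did not pass the test (0.469 percentage points, adjusted p = 0.15). AURKB, the kinase of the complex, had a high boundary PSI already in DMSO (20.1% ± 0.619, SD, n = 6, in WT). The 20 boundary rows of AURKB include sites beyond those of its 8 canonical introns. How much of this value is retention was not tested. The gene-level PSI of AURKB rose by 38.6 percentage points in WT and by 4.93 in Y36C cells. BIRC5, which encodes survivin, rose by 14.7 percentage points in WT cells and changed by 1.37 in Y36C cells, which did not pass (adjusted p = 0.34).

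KIF20A, a kinesin of the central spindle at chr5:137514408-137523412, was the third of the genes with the largest rise. All 6 WT DMSO samples were at 1.56 to 1.87% (median 1.71%) and all 6 WT E7107 samples at 53.5 to 58.6% (median 56.3%), a change of 54.4 percentage points (adjusted p = 1.3e-14 by limma). In Y36C cells the samples moved from 1.56 to 2.23% (median 1.91%) to 2.89 to 3.88% (median 3.12%). The genes BRD8 and CDC23 overlap KIF20A on the opposite strand, and the strandedness of the libraries is not given in the sources used here, so reads of the partners may not be fully separated. The same limit holds for each of the 16 members whose span meets a gene on the other strand. The other motors followed in WT cells: KIF18A, which aligns chromosomes, by 50.8 percentage points, KIF23 of centralspindlin by 45.1, KIF11, which separates the spindle poles, by 33.4, and the depolymerase KIF2C by 24.3. PRC1, a microtubule bundler, rose by 9.42, and TPX2, the activator of Aurora A at the spindle, by 8.90. In Y36C cells KIF2C, KIF20A, KIF23 and PRC1 rose, by 0.92 to 3.36 percentage points. The value of KIF18A rests on 9 boundary rows, and only 4 of its introns had reads at both boundaries in all samples.

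All 3 mitotic kinases rose in WT cells, as did 71.7% of all genes tested. PLK1, which acts from mitotic entry to cytokinesis, changed from 2.03 to 3.99% (median 2.94%) in WT DMSO to 52.1 to 58.1% (median 54.4%) in WT E7107. Its Y36C samples overlapped, at 2.39 to 4.08% (median 3.19%) in DMSO and 2.25 to 3.66% (median 2.97%) in E7107, with a difference of -0.32 percentage points (adjusted p = 0.49 by limma). PLK4, the kinase that starts centriole duplication, rose in both genotypes. Its WT samples went from 5.62 to 7.40% (median 6.62%) to 38.6 to 49.3% (median 45.6%), and its Y36C samples from 6.20 to 7.09% (median 6.38%) to 12.2 to 16.4% (median 13.8%). AURKA rose by 20.2 percentage points in WT and 1.92 in Y36C cells. The anaphase triggers rose in both genotypes as well: CDC20, the activator of the anaphase-promoting complex, by 36.8 and 1.15 percentage points, and ESPL1, the separase that cleaves cohesin, by 11.4 and 4.46.

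Among checkpoint genes 7 of 8 rose in WT cells and 7 of 8 in Y36C cells, with median changes of 7.38 and 1.10 percentage points. Over all genes tested 71.7% and 45.9% rose, with medians of 6.97 and 0.984. With the median over boundary rows in place of the mean, the Y36C change was -0.0216 in BUB3, -0.0516 in TTK and -0.231 in MAD1L1. No other checkpoint gene turned direction, and MAD1L1 no longer passed in WT cells. TTK, the kinase that starts checkpoint signalling at the kinetochore, stood apart with a rise of 44.99 percentage points in WT and of 0.68 in Y36C cells. BUB3 rose by 14.5, MAD1L1 by 9.31, ZW10 by 7.94, BUB1B by 6.82, BUB1 by 6.32 and MAD2L1 by 4.86 percentage points in WT cells. KNTC1, the partner of ZW10 in the complex that brings dynein to kinetochores, was the exception in WT cells. Its change was 0.73 percentage points in WT cells (adjusted p = 0.085) and 1.67 in Y36C cells (adjusted p = 6.5e-06). With its 122 boundary rows KNTC1 was the gene with the most rows in the group.

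The structural kinetochore genes moved in unlike amounts. In the inner kinetochore, CENPC, which links centromeric chromatin to the outer plate, rose by 14.0 and CENPA, the centromeric histone H3 variant, by 10.1 percentage points in WT cells. CENPK and CENPH belong to the constitutive centromere network and were, with PMF1, the genes with the lowest WT change, all negative. CENPK had 5.24 to 6.78% (median 5.74%) in WT DMSO and 3.26 to 5.47% (median 5.01%) in WT E7107. These groups overlapped, and the difference of -1.12 percentage points passed the test (adjusted p = 0.039 by limma). In Y36C cells the same gene rose from 5.61 to 9.03% (median 6.96%) to 8.66 to 13.8% (median 11.6%), by 4.40 percentage points (adjusted p = 0.0013). CENPH was at 0.753 to 2.65% in WT DMSO and 0.857 to 2.28% in WT E7107, with overlapping groups and a difference of -0.26 (adjusted p = 0.50). The corona genes CENPE, a kinesin, and CENPF rose by 19.2 and 25.8 percentage points in WT cells and in Y36C cells changed by 0.76 (adjusted p = 0.060) and 0.08 (adjusted p = 0.34).

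Of the 9 outer kinetochore genes, 6 rose in each genotype, beside 71.7% of all genes in WT and 45.9% in Y36C cells. With the median over boundary rows, the Y36C change of NDC80 turned to -0.0252. NDC80, which contacts the microtubule, rose by 25.5 percentage points in WT cells, and its partners in the same complex moved less, NUF2 by 4.80 and SPC25 by 2.46. The fourth subunit, SPC24, was among the 3 genes with the largest rise in Y36C cells. It was at 7.30 to 11.8% (median 9.70%) in Y36C DMSO and 15.1 to 22.7% (median 17.1%) in Y36C E7107, a change of 8.29 percentage points (adjusted p = 3.1e-04 by limma). Its WT samples overlapped, at 9.38 to 16.8% (median 12.4%) in DMSO and 12.3 to 17.0% (median 15.3%) in E7107. The value of SPC24 rests on 8 boundary rows. ZWINT, which joins KNL1 to the ZW10 complex, was the third gene by Y36C change. It went from 16.7 to 18.6% (median 17.8%) to 22.0 to 23.7% (median 23.3%) in Y36C cells and from 14.8 to 16.4% (median 15.3%) to 28.1 to 30.9% (median 29.7%) in WT cells.

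In the MIS12 complex, the base on which the outer plate is built, DSN1 rose by 12.6 percentage points in WT and 4.28 in Y36C cells. PMF1 was at 11.7 to 12.8% (median 12.1%) in WT DMSO and 11.1 to 12.6% (median 12.04%) in WT E7107, a difference of -0.283 (adjusted p = 0.56). In Y36C cells it was at 11.4 to 13.5% in DMSO and 12.2 to 13.3% in E7107. Its span is overlapped by the readthrough gene PMF1-BGLAP on the same strand. NSL1 changed by 0.86 percentage points in WT cells (adjusted p = 0.20) and by 0.96 in Y36C cells (adjusted p = 0.10). KNL1, the scaffold of the checkpoint kinases, rose by 10.2 percentage points in WT cells. The change of the median over its rows was -0.476 (adjusted p = 0.16 by limma). Of its 24 introns 9 changed by less than 5 percentage points in WT cells, with a range from -6.69 to 41.4. The cause of the difference between mean and median was not tested.

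The 3 genes with the lowest change in Y36C cells, all below 0, were PLK1, KIF18A and TPX2, which rose in WT cells. KIF18A was at 0.216 to 1.03% (median 0.747%) in Y36C DMSO and 0 to 1.76% (median 0.378%) in Y36C E7107, against 0.427 to 1.32% and 41.8 to 57.9% in the WT groups. TPX2 was at 0.324 to 0.407% (median 0.395%) in Y36C DMSO and 0.306 to 0.386% (median 0.339%) in Y36C E7107. The differences were -0.07 percentage points for KIF18A (adjusted p = 0.70) and -0.04 for TPX2 (adjusted p = 0.37).

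A test of the difference between the genotypes' responses used all 24 samples. Y36C cells changed less than WT cells under E7107 in 33 of the 39 genes and more in 3, namely SPC24, CENPK and KNTC1. Over 10664 genes 60.4% had a smaller and 12.9% a larger change. CENPH, NSL1 and PMF1 did not pass. Compared directly under E7107, Y36C cells had a lower gene-level PSI than WT cells in 33 genes and a higher one in 1, against 64.8% and 14.7% of 10652 genes. These comparisons share samples with those above. In DMSO none of the 39 genes differed between the genotypes by limma, and 6 had an unadjusted p under 0.05. Of 10635 genes, 0.357% were higher and 0.188% lower in Y36C DMSO, and 1478 had an unadjusted p under 0.05.

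A wider list of 58 other kinetochore and spindle genes was fitted in the same way. In WT cells 49 rose and 3 fell, with a median change of 13.7 percentage points, against 71.7%, 7.35% and 6.97 over all genes. In Y36C cells 35 rose and none fell, with a median of 0.856, against 45.9%, 0.95% and 0.984 over all genes. The change was smaller in Y36C cells in 45 and larger in 6, against 60.4% and 12.9% over all genes. In DMSO none of the 58 passed, and 8 had an unadjusted p under 0.05, beside 1478 of all 10635 genes.

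Single boundaries showed the same contrast. A row entered this test if its site had reads in all samples compared and if every sample of at least 1 group had a PSI above 0, so a row that entered only through the group in which it was high had to differ. In WT cells 626 of 724 boundary rows of the 39 genes were called higher and 16 lower. Of all 107055 boundary rows tested, 70.8% were called higher and 5.78% lower. Without the filter on low values 705 of 1191 rows were called higher, beside 43.0% of all rows. In Y36C cells 166 of 519 rows were called higher and 10 lower, against 26.8% and 1.26% of 87156 rows in all, and without the filter 140 of 1208, beside 8.76%. The interaction was called towards a smaller change in Y36C cells in 569 of 782 rows and towards a larger change in 21, against 54.9% and 8.94% of 115156 rows. Under E7107 593 of 752 rows were lower and 24 higher in Y36C cells, while over all 110216 rows 62.9% were lower and 11.7% higher.

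The 5 largest boundary increases in WT cells, at most 1 per gene, came from KIF18A, AURKB, CDCA8, PLK4 and INCENP. At the donor (5′) site of KIF18A intron 5 (exon base 28112164 of chromosome 11, minus strand) PSI was 0 to 2.97% (median 0.625%) in WT DMSO and 83.3 to 95.7% (median 89.9%) in WT E7107. In Y36C cells it was 0 to 1.83% in DMSO and 0 to 2.15% in E7107, so that no Y36C sample came near the WT E7107 range. An AURKB acceptor at base 8110688 of chromosome 17, which belongs to an annotated transcript other than the canonical one, was at 0 to 10.5% (median 0%) in WT DMSO and 81.4 to 91.3% (median 87.3%) in WT E7107. In Y36C E7107 it was at 0 to 10.5% (median 2.5%).

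The acceptor of CDCA8 intron 6 (base 38168924 of chromosome 1) went from 0.784 to 2.48% (median 2.25%) to 78.7 to 92.1% (median 83.6%) in WT cells and reached 2.26 to 7.33% (median 4.39%) in Y36C E7107. The acceptor of PLK4 intron 1 (base 128802986 of chromosome 4) went from 0 to 5.33% (median 4.14%) to 79.3 to 88.9% (median 83.2%) in WT cells, with 0 to 19.7% (median 10.9%) in Y36C E7107. The acceptor of INCENP intron 12 (base 61912641 of chromosome 11) went from 0 to 1.99% (median 0.781%) to 67.7 to 85.7% (median 82.3%), with 0.714 to 4.07% (median 3.19%) in Y36C E7107. In all 5 the WT groups lay apart, by 78.2 to 89.1 percentage points in mean. Boundaries and junctions named for the size of their E7107 change were ranked by it, and some entered the test only through the group in which they were high, so their values are descriptions with no test.

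In Y36C cells the 5 largest boundary increases lay in ESPL1, DSN1, PLK4, KNTC1 and BUB1B, and not all of them were larger in WT cells. At the donor of ESPL1 intron 23 (exon base 53683996 of chromosome 12) PSI was 9.33 to 20.9% (median 15.6%) in Y36C DMSO and 46.7 to 62.2% (median 55.5%) in Y36C E7107. The WT samples were at 11.5 to 18.6% (median 17.0%) and 35.7 to 48.1% (median 37.8%). The rise was 39.6 percentage points in Y36C and 23.5 in WT cells, and the E7107 samples of the genotypes overlapped. The donor of DSN1 intron 1 (exon base 35402065 of chromosome 20, minus strand) rose from 21.9 to 39.1% (median 33.5%) to 57.9 to 82.3% (median 70.1%) in Y36C and from 22.5 to 46.5% (median 31.5%) to 55.6 to 92.3% (median 71.8%) in WT cells, so that the genotypes overlapped under both treatments. The acceptor of PLK4 intron 5 (base 128808551 of chromosome 4) rose by 36.2 percentage points in Y36C cells, to 42.5 to 60.9% (median 46.7%), and by 72.1 in WT cells, to 75 to 89.1% (median 79.2%).

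The donor of KNTC1 intron 42 (exon base 123076000 of chromosome 12) was retained in many transcripts already in DMSO, at 50 to 62.9% (median 57.2%) in Y36C and 33.3 to 47.1% (median 42.3%) in WT cells. It reached 78.9 to 92.5% (median 86.4%) in Y36C E7107 and 43.2 to 59.3% (median 53.9%) in WT E7107, and the rise was larger in Y36C cells by 18.4 percentage points. The acceptor of BUB1B intron 12 (base 40494606 of chromosome 15) went from 8.99 to 16.4% (median 12.1%) to 32.2 to 43.2% (median 38.3%) in Y36C cells. Its WT E7107 samples ranged widely, from 0 to 35.7% (median 17.3%), and overlapped WT DMSO (6.74 to 12.8%). This acceptor rose by 25.4 percentage points in Y36C cells. The mean change of both boundaries there was at most 15.3 in any of the 22 BUB1B introns, so the donor of intron 12 rose less.

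The change also varied between the introns of a gene. The 39 canonical transcripts have 611 introns, and both boundaries of 573 had reads in all 24 samples. The mean change of both boundaries in WT cells was above 50 percentage points in 65 introns (11.3%) and under 5 in 156 (27.2%), against 5.61% and 50.7% of 94375 introns of other genes. In Y36C cells the change was above 10 percentage points in 24 introns (4.19%), against 6.04% of the introns of other genes. In CDCA8, 8 of 9 introns rose by more than 50 percentage points in WT cells, in INCENP 15 of 18 and in KIF20A 12 of 18. PLK4 ranged from 8.52 to 77.4 percentage points over 15 introns, NDC80 from 1.09 to 57.0 over 15, and MAD1L1 from -0.633 to 60.5 over 17. In KNTC1 the WT change was below 5 percentage points in 56 of 58 introns, while in Y36C cells these introns ranged from -0.934 to 28.2. The WT change was also below 5 percentage points in all 8 introns of CENPH, all 6 of SPC25 and all 4 of PMF1.

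**Figure D2:**
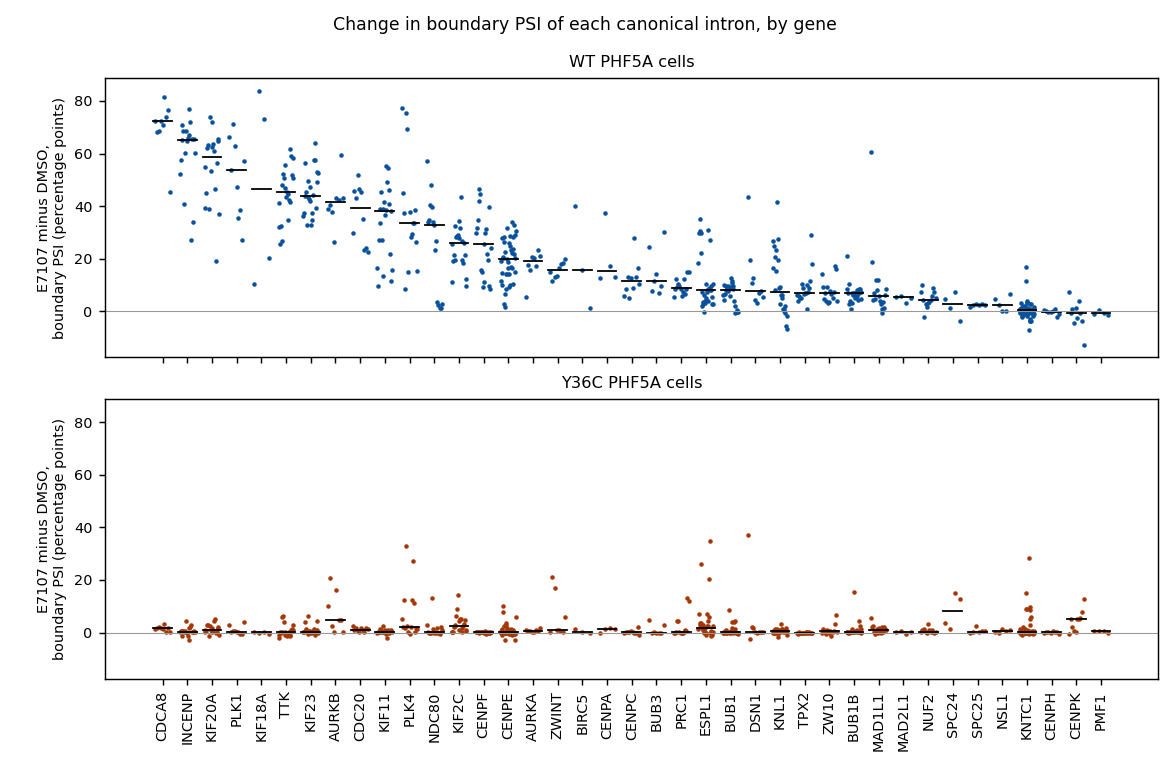
Change in boundary PSI (y axis, E7107 minus DMSO, percentage points, mean of both boundaries and of 6 samples per group) of each of 573 introns, grouped by gene and ordered along the transcript, in WT (top) and Y36C cells (bottom). Black lines are gene medians. In WT cells 65 introns lie above 50, and in Y36C cells the points above 20 belong to PLK4, DSN1, ESPL1, KNTC1, AURKB and ZWINT.

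Short and GC-rich introns of these genes had the larger changes in WT cells. The median change was 27.3 percentage points in 41 introns of up to 110 bases, 22.1 in 54 introns above 110 and up to 200 bases, 12.4 in 136 introns of 1000 to 2000 bases and 3.61 in 21 introns above 10000 bases. It was 40.2 percentage points in 23 introns with a GC content above 60% and 9.56 in 155 introns of up to 35%. Among introns of other genes these medians were 6.57, 6.69, 4.72 and 3.47 by length, and 5.97 and 5.95 by GC content. The members' WT medians did not fall at every step of length, with 8.87 in 84 introns of 500 to 1000 bases. By GC content they lay between 9.56 and 12.8 in the bins up to 50%. In Y36C cells the members' medians lay between 0.0674 and 1.32 percentage points in every bin of length or GC content. The 573 introns were shorter (median 1221 against 1375 bases) and poorer in GC (40.1% against 44.03%) than those of other genes. Introns of a gene share its transcripts, and length and GC content go together, so these are descriptions without a test.

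**Figure D3:**
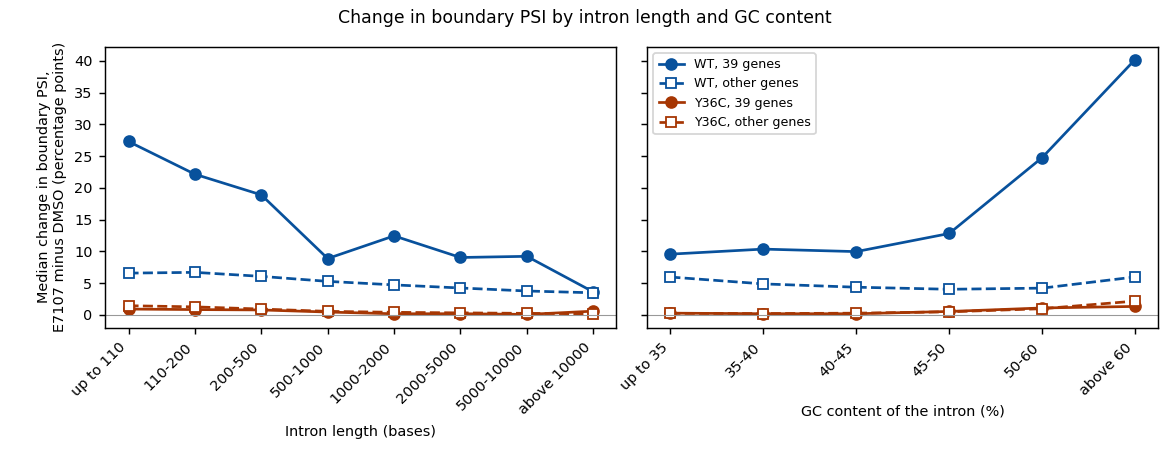
Median change in boundary PSI (y axis, E7107 minus DMSO, percentage points) of introns binned by length in bases (left) or GC content in % (right). Filled circles are the 39 genes and open squares all other protein-coding genes, blue in WT and brown in Y36C cells; the filled blue line falls from 27.3 to 3.61 with length and rises from 9.56 to 40.2 with GC content.

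The introns of up to 200 bases allow the whole sequence to be shown beside its response. They were taken from the GRCh37 sequence, at most 1 per gene, after their values were known, and are written 5′ to 3′ on the gene's strand with the first and last 2 bases in capitals. The first 3 had the largest WT changes among such introns.
INCENP intron 12: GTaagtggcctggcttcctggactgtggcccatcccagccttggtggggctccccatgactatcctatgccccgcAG
KIF20A intron 7: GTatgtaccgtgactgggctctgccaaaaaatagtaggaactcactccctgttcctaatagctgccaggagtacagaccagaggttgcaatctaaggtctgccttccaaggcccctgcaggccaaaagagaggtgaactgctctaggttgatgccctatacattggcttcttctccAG
CDCA8 intron 1: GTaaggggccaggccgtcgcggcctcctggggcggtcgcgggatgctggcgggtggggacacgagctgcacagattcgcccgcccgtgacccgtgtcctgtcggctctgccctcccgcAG
INCENP intron 12 (chr11:61912564-61912640, plus strand) has 77 bases and 63.6% GC. The mean PSI of both its boundaries was 1.42% in WT DMSO against 78.2% in WT E7107, and 0.716% in Y36C DMSO against 2.30% in Y36C E7107. KIF20A intron 7 (chr5:137518680-137518857, plus strand, 178 bases, 50.6% GC) had 2.68, 76.7, 2.90 and 5.29% in the same order. CDCA8 intron 1 (chr1:38158457-38158576, plus strand, 120 bases, 74.2% GC) had 0.147, 72.3, 0.237 and 1.56%. All 3 were spliced almost completely in DMSO and stayed so in Y36C E7107.

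The next 3 had the largest Y36C changes among introns of up to 200 bases in genes other than KNTC1. They were retained in part already in DMSO. KNTC1 was not eligible, because an intron of it was already taken for its low WT change. The largest Y36C change of a KNTC1 intron of any length was 28.2 percentage points. Longer introns of DSN1 and PLK4 changed by 36.97 and 33.1 percentage points in Y36C cells.
ESPL1 intron 23: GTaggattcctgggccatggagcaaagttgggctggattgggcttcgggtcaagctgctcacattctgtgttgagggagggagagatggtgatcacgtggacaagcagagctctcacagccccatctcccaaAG
PLK4 intron 11: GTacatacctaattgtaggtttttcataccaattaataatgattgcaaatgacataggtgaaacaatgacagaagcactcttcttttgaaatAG
ZWINT intron 2: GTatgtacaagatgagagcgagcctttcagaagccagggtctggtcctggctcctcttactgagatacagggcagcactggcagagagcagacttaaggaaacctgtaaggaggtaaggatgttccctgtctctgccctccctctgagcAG
ESPL1 intron 23 (chr12:53683997-53684130, plus strand, 134 bases, 56.0% GC) had 17.3% in WT DMSO against 44.4% in WT E7107, and 18.0% in Y36C DMSO against 53.0% in Y36C E7107. PLK4 intron 11 (chr4:128814574-128814667, plus strand, 94 bases, 30.9% GC) had 10.5, 43.9, 8.73 and 35.9%. ZWINT intron 2 (chr10:58119903-58120053, minus strand, 151 bases, 53.6% GC) had 15.0, 26.4, 28.6 and 49.6%. In ESPL1 and ZWINT the Y36C E7107 mean was thus the highest of the 4.

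The short introns with the lowest WT changes, by signed value, follow.
KNTC1 intron 46: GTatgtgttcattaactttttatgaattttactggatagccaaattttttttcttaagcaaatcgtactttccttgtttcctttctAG
BUB1 intron 22: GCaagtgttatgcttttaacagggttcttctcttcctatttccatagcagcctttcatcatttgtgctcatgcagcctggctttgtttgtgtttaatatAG
BUB1B intron 7: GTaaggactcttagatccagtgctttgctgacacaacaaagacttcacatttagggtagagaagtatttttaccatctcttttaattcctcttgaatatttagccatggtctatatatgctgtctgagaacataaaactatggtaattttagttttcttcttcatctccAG
KNTC1 intron 46 (chr12:123087288-123087375, plus strand, 88 bases, 28.4% GC) had 8.69% in WT DMSO against 4.85% in WT E7107, and 4.72% in Y36C DMSO against 13.4% in Y36C E7107. BUB1 intron 22 (chr2:111398783-111398883, minus strand, 101 bases, 39.6% GC) begins with GC instead of GT and stayed at 0.398 to 0.579% in all 4 groups. BUB1B intron 7 (chr15:40477581-40477751, plus strand, 171 bases, 34.5% GC) was at 3.43 to 4.70%. Among the 573 introns 570 begin with GT and end with AG, 2 begin with GC and end with AG, and 1 begins with AT and ends with AC.

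The AT–AC intron is intron 2 of SPC24 (chr19:11258794-11259769, minus strand, 976 bases), singled out here for its ends after its values were seen. Introns with such ends are typically removed by the minor spliceosome, which also contains SF3b. Its donor window (3 exon and 10 intron bases, chr19:11259760-11259772) and acceptor window (30 intron and 3 exon bases, chr19:11258791-11258823) are shown with the terminal bases in capitals.
SPC24 intron 2 donor: cctATatcctttt
SPC24 intron 2 acceptor: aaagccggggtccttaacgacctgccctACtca
Its donor PSI was 5.34% in WT DMSO and 5.61% in WT E7107, and its acceptor PSI 4.04% and 5.90%. In Y36C cells the donor was at 6.57% and 7.47% and the acceptor at 6.27% and 8.32%.

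ES junctions were called in both directions in WT cells and mostly higher in Y36C cells. Here a junction counts as ES if it connects annotated splice sites within a gene and passes over 1 or more annotated exons, which includes some main junctions that span a rarely used exon. In WT cells 54 of 138 ES junctions of the 39 genes were called higher and 43 lower under E7107, against 22.5% and 28.1% of 23440 tested in all. In Y36C cells 67 of 142 were called higher and 20 lower, against 32.3% and 9.71% of 28550. When only exons of the canonical transcript counted, a definition added after the data were seen, 51 of 93 junctions were called higher and 15 lower in WT cells (34.5% and 15.9% of 11597 in all). In Y36C cells 60 of 93 were called higher and 4 lower (54.0% and 1.88% of 15014). The interaction test on the first definition called 72 of 175 junctions towards a larger change in Y36C cells and 41 towards a smaller one, against 35.5% and 14.8% of 30038 junctions. Under E7107 76 of 162 ES junctions were higher and 46 lower in Y36C than in WT cells, beside 44.7% and 18.4% of 27802. Of the 60 canonical junctions called higher in Y36C cells, spread over 28 genes, 44 skipped a single exon, as did 69 of the 93 tested. In 53 of them all skipped exons were coding throughout, and in 23 of these 53 the skipped length was not a multiple of 3, against 35 of 81 such junctions tested, which is about the same share. Of the 51 called higher in WT cells, from 18 genes, 32 skipped a single exon, beside 67 of the 93 tested. In 28 of 46 with coding exons the length was not a multiple of 3, beside 45 of 81 tested.

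The 5 largest ES increases in WT cells were those of PLK4, KIF23, NUF2, KIF20A and TTK. The PLK4 junction chr4:128803082-128804593 skips exon 3, of 96 bases. Its PSI at the donor was 0 to 8% (median 2.12%) in WT DMSO and 38.2 to 55.7% (median 53.0%) in WT E7107, against 0 to 6.90% and 0 to 17.5% (median 7.19%) in the Y36C groups. The KIF23 junction chr15:69714092-69714664 skips exon 5, of 137 bases. It rose in both genotypes, from 6.84 to 12.7% (median 9.46%) to 25.0 to 69.2% (median 37.5%) in WT and from 6.21 to 11.0% (median 7.99%) to 22.4 to 29.9% (median 25.1%) in Y36C cells.

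The NUF2 junction chr1:163292003-163313522 joins exon 1 to exon 10. It was at 0 in all 12 DMSO samples and at 8.77 to 37.7% (median 31.6%) in WT E7107, with 0 to 3.12% (median 0%) in Y36C E7107. The KIF20A junction chr5:137515535-137517297 skips exon 3, of 90 bases, and went from 0 to 0.541% (median 0%) to 19.7 to 25.9% (median 20.6%) in WT cells, with 0.658 to 5.13% (median 2.29%) in Y36C E7107. The TTK junction chr6:80749590-80750322 skips exon 20, of 85 bases, and went from 0 to 0.870% (median 0%) to 10.7 to 32.0% (median 19.7%) in WT cells. Its Y36C E7107 samples were at 0 to 1.83% (median 0.621%). The 5 junctions were ranked by their WT change, and in PLK4, NUF2, KIF20A and TTK every WT E7107 sample lay above every Y36C E7107 sample.

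**Figure D4:**
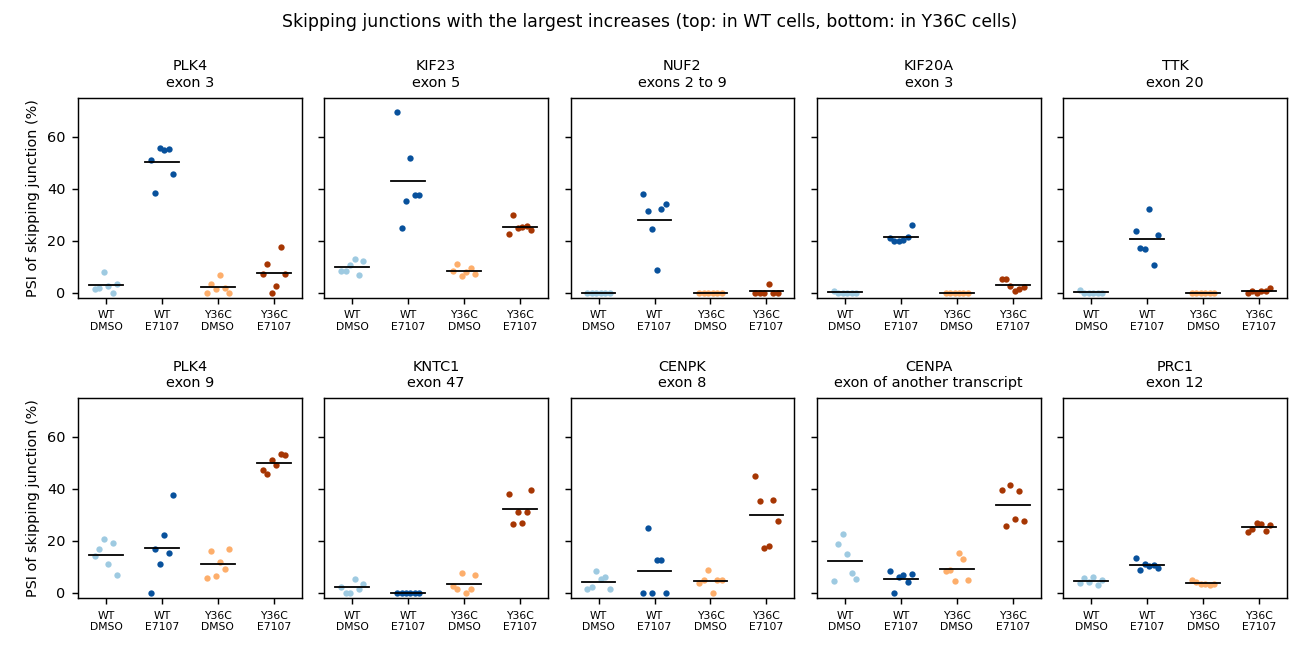
PSI (y axis, %) of the 5 skipping junctions with the largest called increases in WT cells (top) and in Y36C cells (bottom), at most 1 per gene, with 1 point per sample and the group mean as a line. In the top row the WT E7107 points lie above all others except in KIF23, where they overlap Y36C E7107, and in the bottom row every Y36C E7107 point of KNTC1, CENPA, PLK4 and PRC1 lies above all points of the other groups.

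The 5 largest ES increases in Y36C cells concerned other junctions, those of PLK4, KNTC1, CENPK, CENPA and PRC1. The PLK4 junction chr4:128812352-128813519 skips exon 9, of 103 bases. At its acceptor PSI was 5.56 to 17.0% (median 10.4%) in Y36C DMSO and 45.7 to 53.3% (median 50.2%) in Y36C E7107. The WT groups overlapped, at 6.98 to 20.8% (median 15.3%) in DMSO and 0 to 37.5% (median 16.0%) in E7107. The KNTC1 junction chr12:123087288-123087573 skips exon 47, of 59 bases, and begins with the intron 46 shown above. It was at 0 to 7.69% (median 1.99%) in Y36C DMSO, at 26.5 to 39.6% (median 31.2%) in Y36C E7107, at 0 to 5.26% in WT DMSO and at 0 in all 6 WT E7107 samples.

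The CENPK junction chr5:64824406-64824943 (minus strand) skips exon 8, of 99 bases, and went from 0 to 8.77% (median 4.82%) to 17.1 to 45% (median 31.5%) in Y36C cells, while WT E7107 ranged from 0 to 25.0% (median 6.25%). The CENPA junction chr2:26998545-27000909 crosses an exon of another annotated transcript and no exon of the canonical one. It went from 4.60 to 15.2% (median 8.56%) to 25.6 to 41.6% (median 33.8%) in Y36C cells and was at 0 to 8.57% (median 6.46%) in WT E7107. The gene SLC35F6 overlaps CENPA on the same strand. The PRC1 junction chr15:91512854-91517365 (minus strand) skips exon 12, of 111 bases, and rose to 23.4 to 27.0% (median 25.3%) in Y36C E7107, from 3.15 to 5.01% (median 3.46%), and to 8.70 to 13.5% (median 10.4%) in WT E7107, from 3.12 to 6.04% (median 4.51%). These 5 were ranked by their Y36C change, so the difference between the genotypes was not tested on them.

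At 36 acceptors in 22 of the genes an ES junction was called higher in Y36C cells and the boundary was called higher in WT cells. These were 55.4% of the 65 acceptors of the 39 genes at which both were tested. Over all genes the share was 29.0% of 11916 acceptors. Of the 65, the boundary was called higher in WT cells at 54 and ES in Y36C cells at 41. Over all genes these counts were 7525 and 5115. Each call alone was thus more frequent in the 39 genes, and an excess of joint calls beyond that was not tested. The 5 acceptors with the largest WT boundary change, at most 1 per gene, are shown with 30 intron and 3 exon bases, the last 2 intron bases in capitals.
KIF18A intron 5: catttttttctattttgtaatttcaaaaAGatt
CDCA8 intron 7: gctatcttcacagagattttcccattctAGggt
AURKB intron 8: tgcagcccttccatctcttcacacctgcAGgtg
TTK intron 18: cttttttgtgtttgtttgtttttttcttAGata
KIF23 intron 22: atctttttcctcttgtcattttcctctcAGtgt
They lie at chr11:28110266-28110298 (minus strand), chr1:38171083-38171115 (plus), chr17:8108360-8108392 (minus), chr6:80749383-80749415 (plus) and chr15:69739180-69739212 (plus). The boundary calls and the ES calls chose these sites, so their values are given as a description.

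At the KIF18A acceptor the boundary was at 0 to 1.20% (median 0%) in WT DMSO, 71.4 to 84.6% (median 79.5%) in WT E7107 and 0 to 1.11% (median 0%) in Y36C E7107. The junction that skips exon 5, of 111 bases, was at 1.02 to 4.90% (median 2.27%) in Y36C DMSO and 6.19 to 11.5% (median 7.19%) in Y36C E7107, and in WT E7107 it ranged from 0 to 14.3% (median 6.97%). At the CDCA8 acceptor the boundary went from 1.5 to 6.30% (median 3.32%) to 64.7 to 87.5% (median 81.4%) in WT cells and was at 2.45 to 8.14% (median 5.21%) in Y36C E7107. Skipping of exon 7, of 96 bases, was at 0 to 2.08% (median 0%) in WT E7107 and rose from 0 to 1.80% (median 0.906%) to 5.31 to 8.82% (median 6.48%) in Y36C cells. At both acceptors the boundary separated WT E7107 from the other groups by a wide margin, while the ES shares were small.

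At the AURKB acceptor the boundary was at 51.8 to 58.5% (median 54.2%) in WT E7107 and at 0.888 to 2.11% (median 1.31%) in Y36C E7107, and skipping of exon 8, of 175 bases, was at 0.361 to 1.92% (median 1.20%) and 2.66 to 6.69% (median 3.67%). At the TTK acceptor the boundary was at 0 in all WT DMSO samples, at 40.7 to 61.5% (median 51.8%) in WT E7107 and at 0.565 to 2.52% (median 0.943%) in Y36C E7107. Skipping of TTK exon 18, of 81 bases, was higher in WT E7107, at 11.5 to 25.0% (median 18.3%), than in Y36C E7107, at 0.629 to 6.00% (median 3.35%). At the KIF23 acceptor the boundary was at 35.1 to 67.4% (median 56.0%) in WT E7107 and 4.37 to 9.45% (median 8.10%) in Y36C E7107. Skipping of KIF23 exon 22, of 82 bases, rose from 2.55 to 7.43% (median 4.57%) to 11.6 to 20.6% (median 17.1%) in Y36C cells and was at 4.65 to 24.3% (median 9.55%) in WT E7107. TTK therefore had more of both IR and ES in WT cells, whereas in CDCA8 and AURKB the ES share was higher in every Y36C E7107 sample than in any WT E7107 sample.

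**Figure D5:**
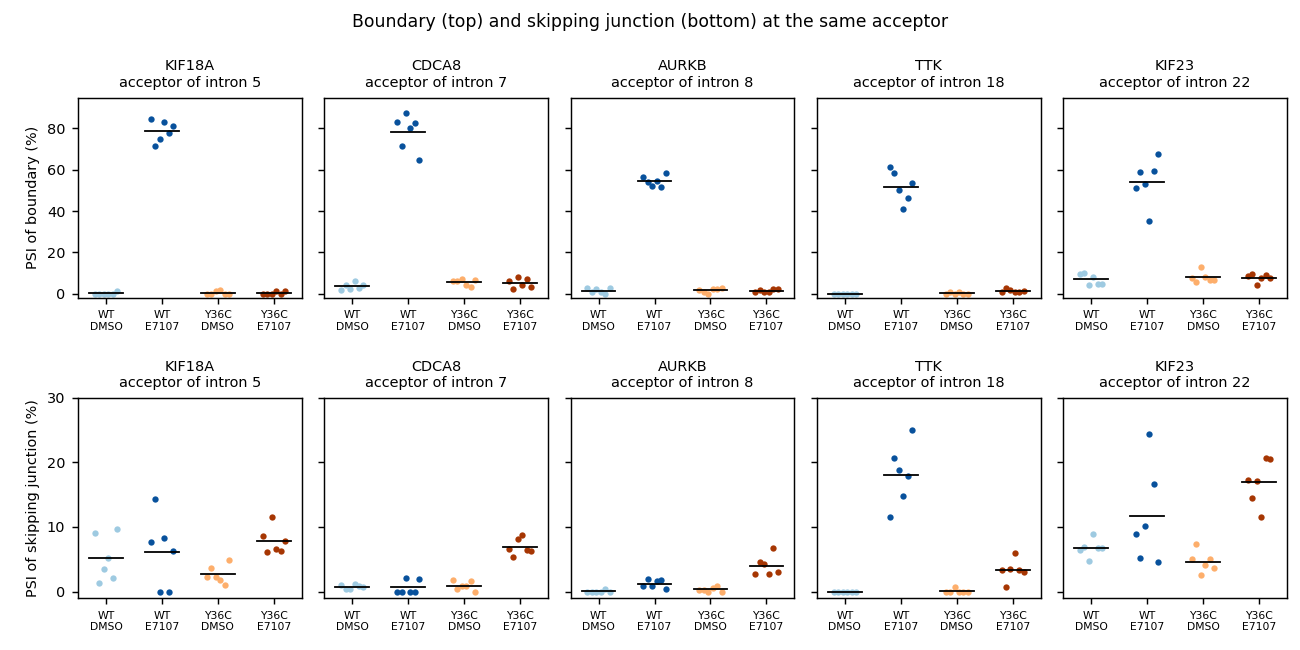
PSI (y axis, %) of the exon–intron boundary (top) and of the skipping junction (bottom) at the same 5 acceptors, with 1 point per sample and the group mean as a line. In the top row all WT E7107 points are at 35.1% or more and all others at 12.7% or less, and in the bottom row the Y36C E7107 points of CDCA8 and AURKB lie above all others while those of TTK lie below WT E7107.

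Few differences were called between the genotypes without drug. Of 1226 junctions tested between Y36C DMSO and WT DMSO, 1 was called higher and 1 lower, against 0.0837% and 0.0763% of 230674 in all. An unadjusted p under 0.05 was found in 150 of the 1226, beside 30547 of the 230674. Both calls concern the donor of ZWINT intron 2, whose sequence is given above. Its boundary was at 14.2 to 18.0% (median 16.1%) in WT DMSO and 27.4 to 31.1% (median 30.2%) in Y36C DMSO, without overlap (13.4 percentage points, adjusted p = 0.025 by limma). The spliced junction from the same donor was at 81.8 to 85.8% (median 83.9%) and 68.4 to 72.3% (median 69.8%). Under E7107 the boundary reached 23.6 to 33.8% (median 24.5%) in WT and 48.2 to 56.1% (median 52.4%) in Y36C cells, so the 4 groups kept the order of the genotypes. The DMSO calls were lost with an offset of 0.1 percentage point (adjusted p = 0.12), with a filter on mean PSI of 5% (adjusted p = 0.083) and with the replicate number as a block (adjusted p = 0.38).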

How the data were processed

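The authors aligned reads to hg19 with STAR (per the labels and the study's methods) and deposited a table per sample with the PSI, in percent, of each junction relative to all junctions that share a splice site. The 39 genes, the 58-gene list and the lists of roles were chosen with earlier results of these data known. Rows on the mitochondrial chromosome or without strand (6433) were left out. Percentages at a site added up to 100 (within 0.01) or to 0, and 0 was treated as missing. Splice sites were annotated with GENCODE lifted to GRCh37, and of 2759 spliced junctions of the 39 genes 98.4% had GT and AG ends there. No pair of samples held identical values.

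After 1 percentage point had been added to PSI and to its remainder, natural-log odds were compared with limma 3.58.1 in R 4.3.3, over all rows or all genes, with Benjamini–Hochberg adjustment and a threshold of 0.05. Comparisons within a genotype or treatment used their 12 samples and the interaction all 24. A spliced junction was tested at both ends and the smaller p kept. Genes needed at least 2 boundary rows. All 39 genes are described, and single events by rank of change as stated beside them. Coordinates are 1-based and give the bases of the intron, or the exon base next to a boundary. Overlapping genes, and opposite-strand genes where strandedness is not stated, may share reads.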

Additional observations from a re-analysis of the deposited data

Results flagged for a closer look

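The change in gene-level boundary PSI under E7107 differed between WT and Y36C cells in 36 of the 39 genes by limma's interaction test. The WT change exceeded the Y36C change, in percentage points, by 61.7 in CDCA8, 59.7 in INCENP, 33.7 in AURKB and 13.3 in BIRC5 of the chromosomal passenger complex. Among the kinases and anaphase triggers it did so by 51.9 in PLK1, 30.6 in PLK4, 18.3 in AURKA, 35.6 in CDC20 and 6.91 in ESPL1. Among spindle motors and factors the excess was 53.0 in KIF20A, 50.9 in KIF18A, 44.2 in KIF23, 33.0 in KIF11, 21.0 in KIF2C, 8.94 in TPX2 and 6.96 in PRC1. For checkpoint genes it was 44.3 in TTK, 13.3 in BUB3, 8.19 in MAD1L1, 7.05 in ZW10, 5.55 in BUB1B, 5.25 in BUB1 and 4.73 in MAD2L1. For kinetochore genes it was 25.7 in CENPF, 24.0 in NDC80, 18.4 in CENPE, 13.6 in CENPC, 9.74 in KNL1, 8.76 in ZWINT, 8.36 in DSN1, 6.03 in CENPA, 4.00 in NUF2 and 1.85 in SPC25. The WT minus Y36C difference was -5.98 in SPC24, -5.51 in CENPK and -0.94 in KNTC1.

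In 23 of 284 groups of 6 a single sample stood far from the others by Dixon's criterion. Chance alone meets it in about 1 of 20 groups, but that rate does not hold for values at the floor. A group with 0 in all samples but 1 is always flagged, as for the AURKB boundary in WT DMSO and NUF2 skipping in Y36C E7107. At the gene level the samples apart were, in WT DMSO, BUB3 in replicate 2 (5.83%), NSL1 in replicate 5 (5.19%) and ESPL1 in replicate 1 (8.94%). In WT E7107 they were INCENP and CENPA in replicate 5 (57.5% and 16.8%) and TPX2 in replicate 2 (11.3%). In Y36C E7107 they were INCENP in replicate 5 (4.10%) and NSL1 and KNTC1 in replicate 2 (4.38% and 4.29%).

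Among single boundaries, the samples apart were in WT DMSO replicate 6 for AURKB (10.5%), CDCA8 (0.784%) and KIF18A (1.20%), in Y36C DMSO replicate 3 for KIF23 (12.7%), and in WT E7107 replicate 4 for ESPL1 (48.1%) and replicate 3 for ZWINT (33.8%, with its spliced junction at 65.7%). Among skipping junctions they were in WT DMSO replicate 1 for KIF20A (0.541%) and TTK exon 20 (0.870%) and replicate 5 for AURKB (0.336%). The others were KIF20A in WT E7107 replicate 6 (25.9%), NUF2 in Y36C E7107 replicate 4 (3.12%), TTK exon 20 in Y36C E7107 replicate 6 (1.83%) and TTK exon 18 in Y36C DMSO replicate 3 (0.709%).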

How the results depend on the processing

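Counts were recomputed under the alternatives, and 165 of 196 stayed within 1.5 times the value given above. With a change of at least 10 percentage points required, boundaries called lower numbered 5 in WT cells, those called higher and lower in Y36C cells 52 and 3, and boundaries with a larger change in Y36C cells 13. ES junctions called higher and lower were then 18 and 20 in WT cells, 25 and 7 in Y36C cells, 40 and 15 for Y36C against WT cells in E7107, and 37 and 15 in the interaction. Without a filter on low values 29 boundaries were called lower in WT cells and 6 in Y36C cells. The latter count was also 6 with PSI in percent as the response, with the filter on a mean PSI of 5% and with all 24 samples in 1 fit, and this fit called 11 ES junctions lower in Y36C cells. On canonical transcripts, a definition chosen after seeing the data, ES junctions called lower were 15 in WT and 4 in Y36C cells. Between the genotypes in DMSO, boundaries called higher in Y36C cells numbered 4 with PSI in percent and 4 with all 24 samples, 0 with the filter on mean PSI, and 1 was called lower with all 24 samples.

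At the gene level, the median over boundary rows in place of the mean called 14 of 35 genes higher in Y36C cells and 1 with a larger change there. PSI in percent called 1 gene higher in Y36C DMSO than in WT DMSO, and 2 genes were higher in Y36C than in WT cells under E7107 with PSI in percent, with introns that have both boundaries, and with the block. With the median the change turned to -0.476 in KNL1 in WT cells (0.476 in the interaction) and in Y36C cells to -0.0216 in BUB3, -0.0516 in TTK, -0.231 in MAD1L1 and -0.0252 in NDC80, and MAD1L1 and CENPC no longer passed in WT cells. Of 579 gene-level comparisons with an alternative, 551 kept their direction and their side of the threshold, as did 183 of 190 for single events. The cause of these differences was not tested.

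Replicate numbers are shared by the groups, but samples with the same number did not deviate together over 202775 rows. Their correlations ran from -0.00464 to 0.0101, and in each comparison 1 or 2 of the 6 numbers correlated best with their own. The depth behind these rows is unknown, so a weak link between samples of the same number could not be assessed. With the replicate block 0 boundaries differed between the genotypes in DMSO and 2 genes were higher in Y36C cells under E7107, and the other counts stayed within 1.5 times. The block added calls in Y36C cells for CENPE and KNL1 and removed that for NUF2 (adjusted p = 0.086). Depth could not be taken into account, so a PSI of 0 or a wide range, as in KNTC1 and CENPK under E7107, may rest on few reads.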
